A study of Homo sapiens with 60 samples.

Results

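Sayeok-tang is a traditional herbal formula, known in Chinese medicine as Sini-tang and made from processed aconite, ginger and licorice. A549 is an established human lung adenocarcinoma line with features of alveolar epithelium. The libraries described here are those of A549 cells given the water extract of Sayeok-tang at 500 µg/mL (high dose, 3 libraries) or at 20 µg/mL (low dose, 3 libraries) for 24 h, chosen by their labelled formula, extract and dose. These 6 libraries are among 60 of the series. A549 cells carry no added allele in either group, and both groups received extract, so the comparison holds no untreated cells. For context, values are also given from 3 libraries at 100 µg/mL (medium dose), from 3 libraries of DMSO vehicle, and from 4 libraries of Bojungikgi-tang water extract, a ginseng and astragalus formula, at 500 or 20 µg/mL (2 each). The sample labels give the vehicle as 0.1% DMSO, whereas the series text gives 2% DMSO. All of these libraries carry the same batch name, while the sample codes of the vehicle libraries start differently from those of the extracts. The labels do not say whether replicates were separate cultures, so the p-values below measure only the spread between libraries of a group. That spread was pooled over 18 libraries, those named above and 2 of Bojungikgi-tang at 100 µg/mL.

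Gene totals of the 6 libraries ran from 20.88 to 26.82 M counts (M, 1e6), and each held between 22648 and 23351 genes with at least 1 count. The mitochondrial genome gave 10.2 to 11.1% of counts in the high dose libraries and 9.25 to 11.3% in the low dose libraries. Of 9 tested markers of A549 cells, KRT8 and KRT18 (simple epithelial keratins), ALDH1A1 and AKR1B10 were among the abundant genes, while EPCAM was low at 4.43 to 6.48 counts scaled to a library of 1e6 (CPM, by edgeR's TMM scaling). Of these 9 markers, 5 fell and none rose between the doses, and the summed list of 12 lay between 16696 and 16740 CPM in high dose and between 18382 and 18594 CPM in low dose libraries. CDKN2A, known to be deleted in this line, had too few counts to test and was at 0 in all 6 libraries. Among leukocyte markers, CD3E and MS4A1 were at 0 in all 6 libraries and PTPRC was at 0 in 5 of them. The summed leukocyte list lay between 11.7 and 15.3 CPM in high dose and between 9.61 and 11.8 CPM in low dose libraries. CD68, a lysosomal protein that epithelial cells also make, held most of that sum. The summed fibroblast list lay between 30.8 and 34.0 CPM in high dose and between 38.4 and 41.1 CPM in low dose libraries, most of it COL1A1. All 8 endothelial markers were too low to test, with sums of 0.0435 to 0.26 CPM in high dose and 0.379 to 0.473 CPM in low dose libraries. The part of such markers in the results was not tested.

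Several of the pathways followed below are well known. When sterols run low in the endoplasmic reticulum, SREBP transcription factors are cut free and switch on the enzymes of cholesterol synthesis and fatty acid desaturation. NF-kB factors, held in the cytoplasm by inhibitors, drive chemokine genes in stimulated epithelium. The aryl hydrocarbon receptor (AhR) is a ligand-activated factor that many plant compounds bind, and it drives CYP1 genes. ATF4 is made under amino acid shortage or other stress and drives enzymes of serine and asparagine synthesis.

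The comparison of 500 with 20 µg/mL asked which genes changed over a 25-fold rise in dose of the same extract. Of 16721 genes tested by edgeR's quasi-likelihood test, 638 rose and 630 fell at a Benjamini-Hochberg adjusted p under 0.05, which is 3.82% and 3.77% of the genes tested and 7.58% together. The changes were small. Called genes had a median absolute log2 change of 0.24, and 162 of them changed at least 1.5-fold and 54 at least 2-fold. The high and low dose libraries did not overlap in CPM for 24.4% of all genes tested. The median log2 change over all genes was -0.001. By level, 12.9% of the genes in the top quartile of CPM were called, against 1.91% in the bottom quartile. In bulk RNA, fewer cells with a transcript and less of it per cell cannot be told apart.

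**Figure D1:**
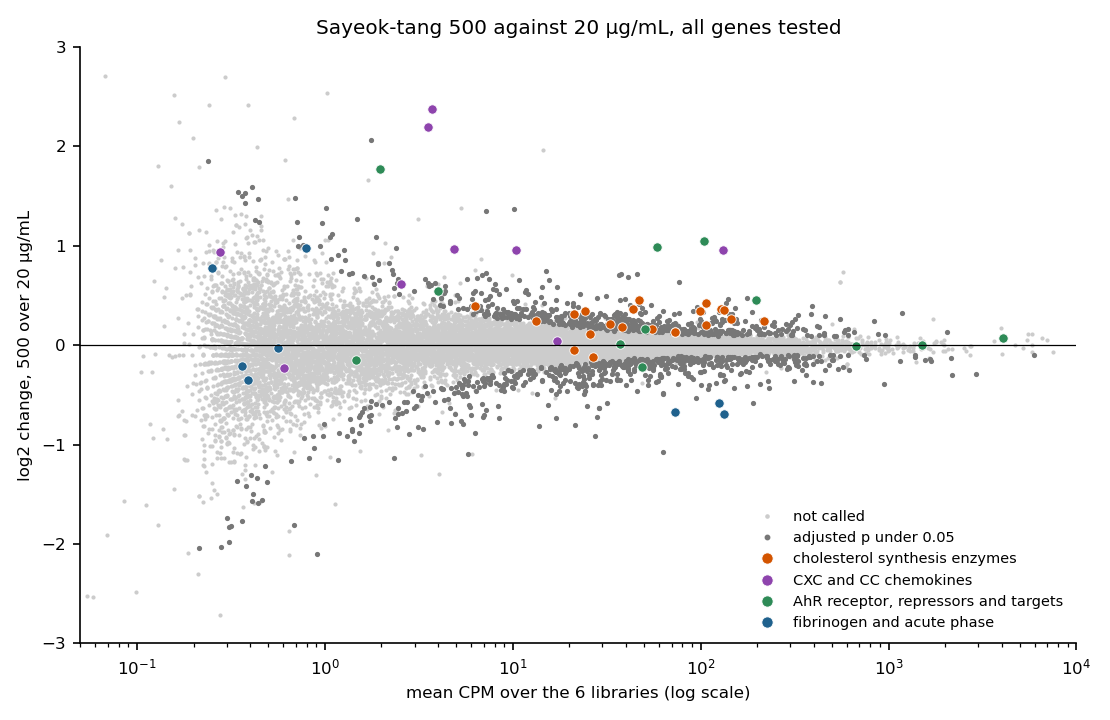
Log2 change at 500 over 20 µg/mL (y axis) against the mean CPM over the 6 libraries (x axis, log scale) for the genes tested, with 24 genes outside the axes; grey points are all genes, and coloured points the tested members of 4 lists. All chemokines but CCL26 stand above 0, the cholesterol enzymes but GGPS1 and PMVK lie between 0.11 and 0.46, and the 3 fibrinogen genes lie between -0.69 and -0.59.

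The 10 largest increases among genes of at least 5 CPM with no overlap between the groups were in GREM1, IL32, CYP1B1, TIPARP, CXCL5, CCL2, NIBAN1, TGFA, FOSL1 and C3. GREM1 encodes gremlin, a secreted antagonist of bone morphogenetic proteins (chr15:32717974-32745107, plus strand, GRCh38). It had 14.5, 15.0 and 14.6 CPM in high dose libraries, against 5.42, 5.64 and 5.97 CPM in low dose libraries. Lack of overlap was part of the rule for this list, and the log2 change of GREM1 was 1.37 ± 0.08 (SE, edgeR adjusted p = 1.03e-14). IL32, an inflammatory cytokine, had 9.80, 10.2 and 10.8 CPM at 500 µg/mL, against 3.76, 3.88 and 4.43 CPM at 20 µg/mL, a log2 change of 1.35 ± 0.10 (adjusted p = 2.65e-12). TGFA, a ligand of the EGF receptor, rose by 0.72 ± 0.10 on the log2 scale, and FOSL1, an AP-1 subunit, rose by 0.72 ± 0.06 (edgeR adjusted p = 1.90e-06 and 4.09e-12).

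The 10 largest decreases by the same rule were in NR4A3, H19, NR4A1, AQP3, INSL4, KRT4, LINC02593, SPDEF, TM4SF4 and BCAS1. H19, an imprinted long non-coding RNA (chr11:1995176-2001470, minus strand), had 42.3, 40.9 and 38.1 CPM in high dose libraries, against 87.6, 85.5 and 83.0 CPM in low dose libraries. Lack of overlap was again part of the rule, and the log2 change of H19 was -1.08 ± 0.08 (adjusted p = 7.02e-07). AQP3, a water and glycerol channel, had 4.79, 4.39 and 3.99 CPM at 500 µg/mL, against 8.00, 8.10 and 8.29 CPM at 20 µg/mL. INSL4, a placental member of the insulin family, averaged 9.96 ± 0.75 CPM in high dose and 17.5 ± 0.43 CPM in low dose libraries (SD, n = 3 each).

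**Figure D2:**
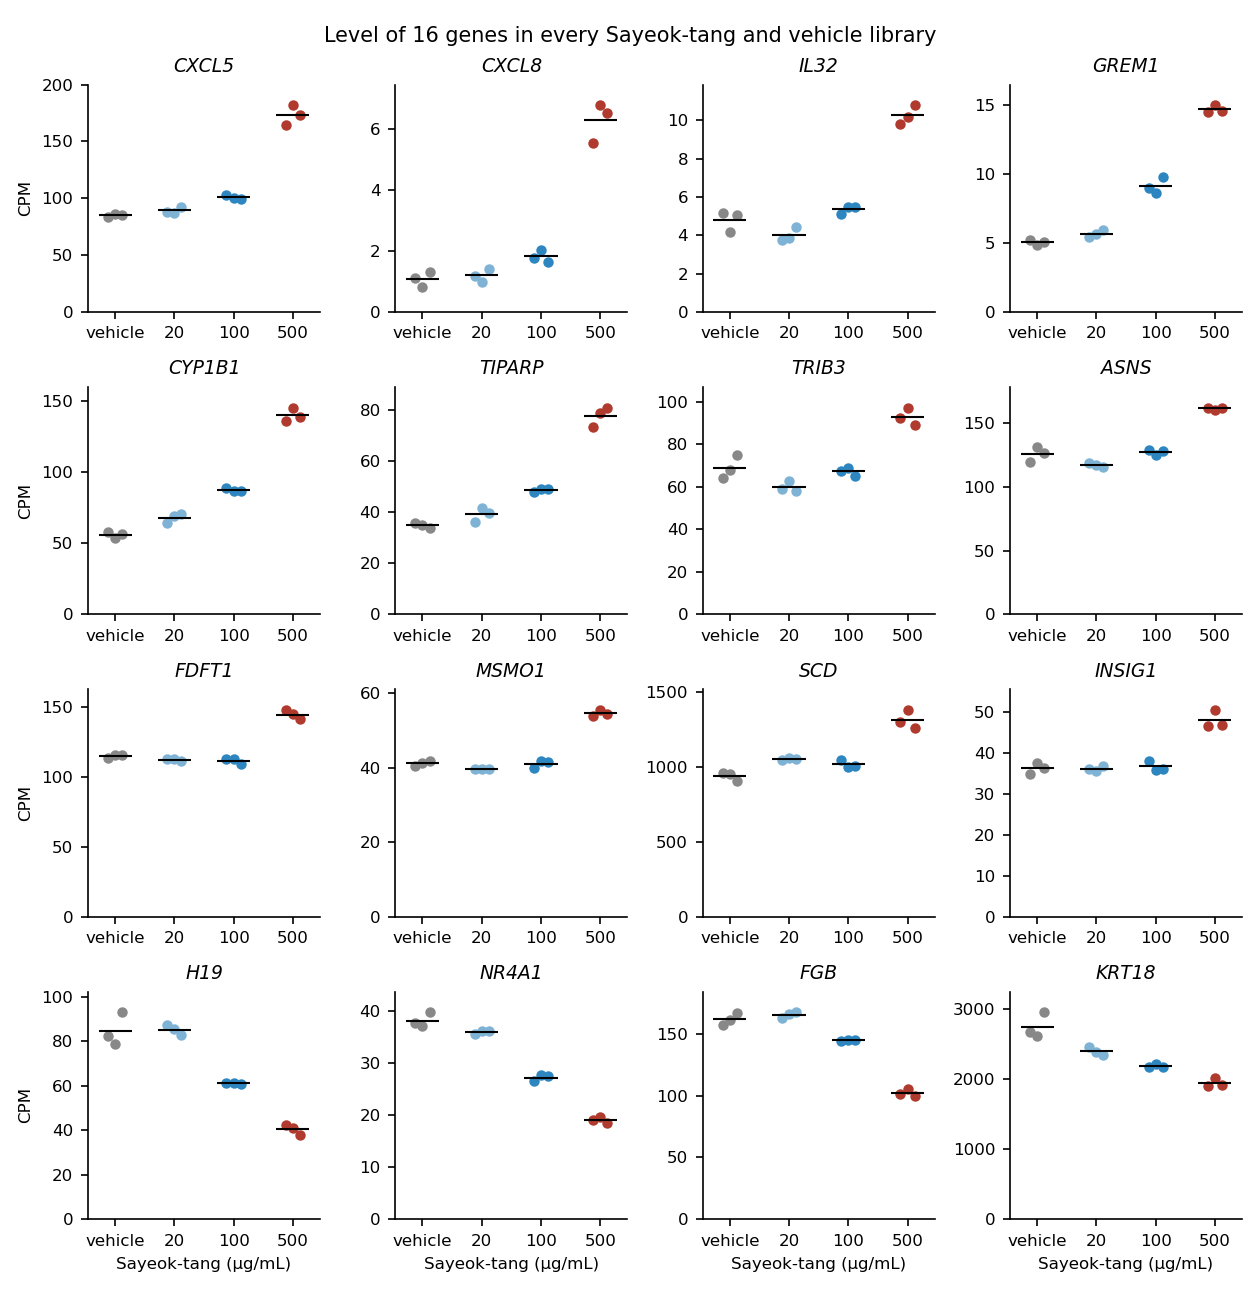
CPM (y axis, from 0) of 16 genes in each vehicle library and each library at 20, 100 and 500 µg/mL Sayeok-tang (x axis); each point is 1 library and each bar the mean of 3. At 500 µg/mL the chemokine, AhR and sterol genes stand above the other groups and H19, NR4A1, FGB and KRT18 below them.

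Chemokine and NF-kB genes were higher at the high dose. Of 14 chemokines listed, 9 could be tested, 6 rose and none fell, with a median log2 change of 0.95. The genes that rose were CXCL1, CXCL2, CXCL3, CXCL5, CXCL8 and CCL2, ligands that draw neutrophils (the CXC members) or monocytes (CCL2). CXCL16, CCL20 and CCL26 did not pass the test, and CXCL6 and CXCL10 were at 0 in every Sayeok-tang library. CXCL8, the interleukin 8 gene, changed most in the list, with 5.53, 6.78 and 6.53 CPM in high dose libraries, against 1.17, 0.995 and 1.42 CPM in low dose libraries. That is a log2 change of 2.38 ± 0.17 (edgeR adjusted p = 4.12e-13), from a low level. CXCL5 had 164, 182 and 173 CPM at 500 µg/mL, against 88.3, 87.0 and 92.3 CPM at 20 µg/mL, a log2 change of 0.95 ± 0.03 (adjusted p = 1.55e-21). CXCL1 had 5.90, 5.91 and 5.57 CPM in high dose libraries, against 1.29, 1.47 and 1.03 CPM in low dose libraries. CXCL1, CXCL2 and CXCL3 are close copies of each other, and how reads were divided among them is an estimate. In CCL2 the values were 12.3, 15.4 and 13.7 CPM at 500 µg/mL, against 6.43, 7.10 and 7.82 CPM at 20 µg/mL.

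The start regions of 3 of these chemokines are shown because they share a short run of letters. Each is RefSeq's 300 bases of assembly GRCh38.p14, from 250 before the gene's start to 50 after it, written 5′ to 3′ on the gene's strand, with capitals at each match to the NF-kB pattern GGNNTTTCC. They lie at chr4:73740319-73740618 (plus strand), chr4:73869143-73869442 (plus strand) and chr4:73998628-73998927 (minus strand).
CXCL8: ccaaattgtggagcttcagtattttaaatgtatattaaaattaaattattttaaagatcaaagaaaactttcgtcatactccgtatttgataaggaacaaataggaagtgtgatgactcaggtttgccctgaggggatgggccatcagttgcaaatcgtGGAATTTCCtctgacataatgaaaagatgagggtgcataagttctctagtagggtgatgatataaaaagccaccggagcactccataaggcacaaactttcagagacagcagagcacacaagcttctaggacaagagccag
CXCL1: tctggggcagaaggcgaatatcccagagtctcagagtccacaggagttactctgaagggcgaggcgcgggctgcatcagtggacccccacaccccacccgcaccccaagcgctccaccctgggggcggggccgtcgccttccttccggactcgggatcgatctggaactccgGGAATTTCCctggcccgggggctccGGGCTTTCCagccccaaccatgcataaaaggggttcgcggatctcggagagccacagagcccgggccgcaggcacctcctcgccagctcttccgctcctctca
CXCL5: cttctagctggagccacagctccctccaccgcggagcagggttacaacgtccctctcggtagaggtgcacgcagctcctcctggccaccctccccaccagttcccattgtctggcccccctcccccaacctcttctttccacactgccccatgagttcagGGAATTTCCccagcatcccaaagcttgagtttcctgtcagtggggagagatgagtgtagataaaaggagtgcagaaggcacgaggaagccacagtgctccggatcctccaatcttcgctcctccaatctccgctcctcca
The same 9 letters, GGAATTTCC, stand in all 3, first base 91, 78 and 90 bases before the start. The pattern, searched on both strands, was in the promoters of 9 of the 10 listed chemokines that have a RefSeq entry (90.0%) and in 1710 of all 27305 promoters (6.26%). It was also in CCL20, which did not pass the test, and in CXCL6, CXCL10 and CXCL11, which had too few counts to test.

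Among 23 NF-kB subunits, inhibitors and signalling genes, 8 rose and none fell, with a median log2 change of 0.10 (0.095 before rounding). NFKB1, NFKB2 and RELB are subunits, and they rose by 0.24, 0.21 and 0.30 on the log2 scale. TNFAIP3 (A20), a feedback inhibitor, had 10.4, 10.2 and 8.53 CPM in high dose libraries, against 6.63, 6.87 and 6.27 CPM in low dose libraries, and its log2 change was 0.56 ± 0.09 (edgeR adjusted p = 4.01e-05). BIRC3, an inhibitor of cell death, rose by 0.42 ± 0.05 and IRAK2, a kinase of interleukin 1 signalling, by 0.52 ± 0.08 (adjusted p = 2.14e-07 and 2.88e-05). Of 12 tested NF-kB effectors, 5 rose and 2 fell. C3, the central complement component, had 55.6, 59.4 and 55.6 CPM at 500 µg/mL, against 36.1, 33.5 and 34.0 CPM at 20 µg/mL. SOD2, the mitochondrial superoxide dismutase, rose by 0.38 ± 0.03 (adjusted p = 1.92e-10). PTGS2, the inducible cyclooxygenase, went the other way with a log2 change of -0.36 ± 0.06 (adjusted p = 8.28e-05). Of 7 tested cytokines, IL32, CSF1 and LIF rose, whereas IL11 and TNFSF15 fell. IL11, an interleukin 6 family cytokine, had 24.2, 21.8 and 23.3 CPM in high dose libraries, against 32.9, 29.8 and 28.1 CPM in low dose libraries.

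Some AhR target genes rose while the receptor fell. Of 12 tested members, 6 rose and 1 fell, with a median log2 change of 0.12. CYP1B1, a cytochrome P450 that oxidises aromatic compounds and steroids, had 136, 146 and 139 CPM in high dose libraries, against 64.3, 69.0 and 70.4 CPM in low dose libraries. Its log2 change was 1.05 ± 0.04 (edgeR adjusted p = 2.16e-21). TIPARP, an ADP-ribosyltransferase that represses AhR, had 73.4, 78.9 and 81.0 CPM at 500 µg/mL, against 36.3, 41.6 and 39.6 CPM at 20 µg/mL. CYP1A1, the best known target, was near 1 CPM at the low dose, with 3.12, 3.09 and 2.87 CPM in high dose libraries, against 0.929, 0.995 and 0.731 CPM in low dose libraries (log2 change 1.77 ± 0.20, adjusted p = 3.18e-08). AHRR, the AhR repressor, and AREG and EREG, ligands of the EGF receptor, also rose. AHR had 44.2, 43.3 and 47.2 CPM at 500 µg/mL, against 49.7, 51.3 and 56.0 CPM at 20 µg/mL (log2 change -0.22 ± 0.05, adjusted p = 0.00101). NQO1 and ALDH3A1, also listed as targets, did not pass the test, with log2 changes of -0.0006 and -0.0073.

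The TIPARP start region (chr3:156674340-156674639, plus strand, RefSeq, GRCh38.p14) is shown for the AhR core pattern GCGTG, here in capitals as its reverse complement at both matches.
TIPARP: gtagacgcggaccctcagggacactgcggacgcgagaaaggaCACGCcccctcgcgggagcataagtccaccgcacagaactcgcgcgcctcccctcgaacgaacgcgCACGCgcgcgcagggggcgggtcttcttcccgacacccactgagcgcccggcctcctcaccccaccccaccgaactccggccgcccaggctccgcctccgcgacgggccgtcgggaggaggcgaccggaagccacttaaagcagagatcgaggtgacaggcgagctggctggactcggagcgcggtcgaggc
This pattern was in 9 of 12 listed AhR genes with an entry (75.0%) and in 36.3% of all promoters. The 9 included AHR, which fell, and NQO1, UGT1A6 and SLC7A5, which were not among the genes that rose. CYP1B1 was not among the 9.

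Cholesterol synthesis was the most complete of the pathways that rose. Of 21 enzymes, all tested, 18 rose and none fell, with a median log2 change of 0.24. By DESeq2 13 rose, and leaving out single libraries left 13 to 16. ACAT2, the thiolase at the acetyl-CoA end of the pathway, rose by 0.21. GGPS1, PMVK and SC5D did not pass the test, with log2 values of -0.12, -0.05 and 0.11; GGPS1 stands on the branch to geranylgeranyl groups, outside the path to sterols. MSMO1, a sterol C4-methyl oxidase, had 53.9, 55.5 and 54.4 CPM in high dose libraries, against 39.7, 39.6 and 39.7 CPM in low dose libraries. Its log2 change of 0.46 ± 0.04 was the highest of the 21 (edgeR adjusted p = 6.08e-10). DHCR7, the last enzyme of one arm, had 119, 129 and 118 CPM at 500 µg/mL, against 89.6, 93.6 and 88.7 CPM at 20 µg/mL. FDFT1, squalene synthase, the first committed step to sterols, had 148, 145 and 141 CPM in high dose libraries, against 113, 113 and 111 CPM in low dose libraries (log2 change 0.36 ± 0.03, adjusted p = 1.85e-11). CYP51A1, lanosterol demethylase, rose by 0.36 ± 0.03, and HMGCS1, an early synthase of the pathway, by 0.24 ± 0.03.

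Sterol regulators rose in part. Of 16 tested genes of sterol uptake, sensing and regulation, 6 rose and 1 fell. INSIG1, which holds the SREBP escort in the endoplasmic reticulum and is itself an SREBP target, had 46.7, 50.6 and 46.9 CPM in high dose libraries, against 36.2, 35.6 and 36.9 CPM in low dose libraries. SREBF2, the gene of SREBP-2, had 123.1, 127 and 121 CPM at 500 µg/mL, against 103, 108 and 107 CPM at 20 µg/mL. MYLIP, a ubiquitin ligase induced by sterols, had a log2 change of -0.38 ± 0.11 (edgeR adjusted p = 0.0265). A separate list held LXR targets, which respond to sterol excess, and MYLIP was not counted in it. None of its 10 tested genes passed edgeR's test or DESeq2, with 2 at an unadjusted p under 0.05. ABCA1, the sterol exporter, had a log2 value of 0.21 ± 0.08 (adjusted p = 0.102), but passed when the 9 Sayeok-tang libraries or the 6 libraries were fitted alone (log2 values 0.211 and 0.213).

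SREBF2 was the only one of the sterol regulators with a promoter entry to hold the sterol regulatory pattern TCACNCCAC. Its start region (chr22:41832855-41833154, plus strand, RefSeq, GRCh38.p14) is given with the match in capitals.
SREBF2: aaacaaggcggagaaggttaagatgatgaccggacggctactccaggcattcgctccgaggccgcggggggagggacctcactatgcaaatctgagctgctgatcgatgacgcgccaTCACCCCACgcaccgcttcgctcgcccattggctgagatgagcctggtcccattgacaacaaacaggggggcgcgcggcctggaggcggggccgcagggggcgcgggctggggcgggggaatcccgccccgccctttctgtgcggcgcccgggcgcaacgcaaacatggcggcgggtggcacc
The pattern was in none of 16 cholesterol enzyme promoters with an entry, in 1 of 13 sterol regulators and in 1.15% of all promoters.

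Fatty acid genes rose in part, with desaturases among them. Of 20 tested genes, 9 rose and none fell. SCD, the enzyme that makes oleate, had 1296, 1379 and 1262 CPM in high dose libraries, against 1044, 1057 and 1051 CPM in low dose libraries (log2 change 0.32 ± 0.03, edgeR adjusted p = 1.49e-09). FADS1, the delta-5 desaturase of polyunsaturated fatty acids, had 428, 435 and 425 CPM at 500 µg/mL, against 346, 352 and 339 CPM at 20 µg/mL. FADS2, the delta-6 desaturase, had a log2 change of 0.29 ± 0.03 (adjusted p = 7.87e-09). FADS1 and FADS2 overlap on opposite strands; the library kit keeps strand, but whether counting used it is not given in the sources used here. FASN, fatty acid synthase, rose by 0.16 ± 0.04 (adjusted p = 0.00357). In the list of lipid droplet and fatty acid oxidation genes, 3 of 16 tested rose and 1 fell, with a median log2 change of -0.002. PLIN2, a lipid droplet coat protein, had 18.9, 20.5 and 19.6 CPM in high dose libraries, against 13.4, 13.8 and 15.8 CPM in low dose libraries. CPT1A, the gate of mitochondrial fatty acid oxidation, rose by 0.21 ± 0.04, while PDK4, which spares glucose when fat is burnt, changed by -0.39 ± 0.06 (adjusted p = 0.00158 and 6.63e-06).

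**Figure D3:**
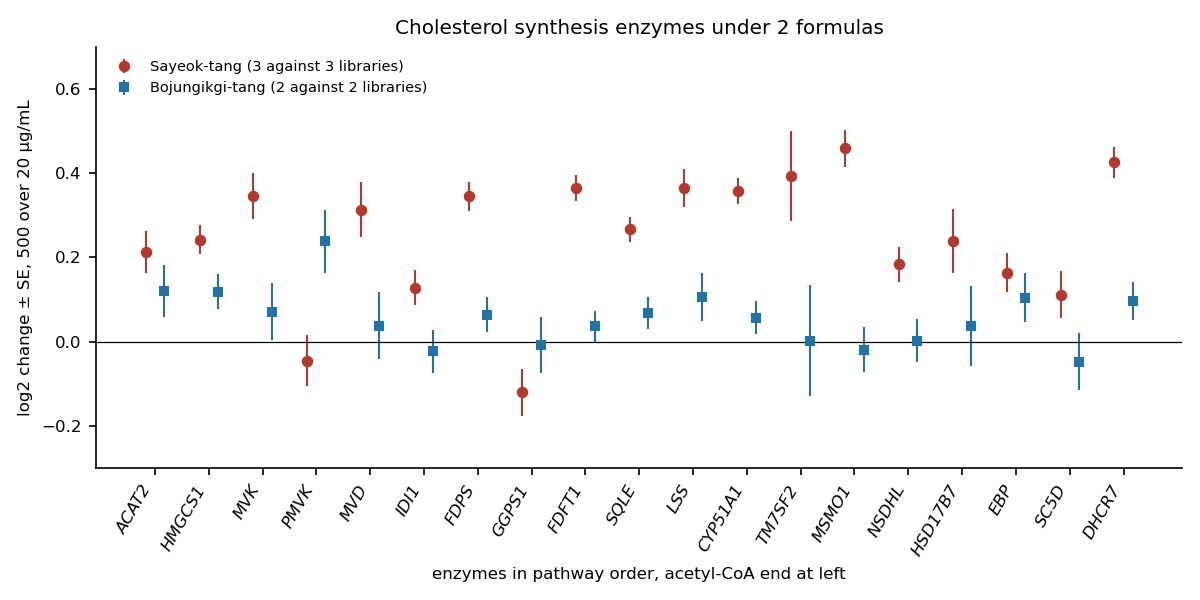
Log2 change at 500 over 20 µg/mL ± SE (y axis) of 19 cholesterol synthesis enzymes in pathway order (x axis; GGPS1 is a side branch), for Sayeok-tang (circles) and Bojungikgi-tang (squares). Under Sayeok-tang 16 of those plotted were called, up to 0.46 in MSMO1, and under Bojungikgi-tang none.

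Amino acid and ATF4 genes rose as well. Of 18 tested enzymes of serine, asparagine and folate metabolism, 10 rose and none fell, with a median log2 change of 0.25, and the count was 10 whichever library was left out. ASNS, asparagine synthetase, had 162, 161 and 162 CPM in high dose libraries, against 118.8, 117.4 and 115.6 CPM in low dose libraries (log2 change 0.47 ± 0.04, edgeR adjusted p = 3.03e-12). PSAT1, of serine synthesis, had 439, 430 and 461 CPM at 500 µg/mL, against 342, 327 and 344 CPM at 20 µg/mL. CBS, the first enzyme that turns homocysteine to cysteine, and PCK2, the mitochondrial PEP carboxykinase, rose by 0.48 ± 0.05 and 0.46 ± 0.05. Of 18 ATF4 factors and stress genes, 7 rose and none fell. TRIB3, a pseudokinase that dampens ATF4 signalling, had 92.4, 97.2 and 89.0 CPM in high dose libraries, against 59.0, 62.6 and 58.0 CPM in low dose libraries. STC2, a secreted stress glycoprotein, and NIBAN1 rose by 0.71 ± 0.05 and 0.75 ± 0.07 (adjusted p = 1.09e-13 and 9.69e-10). ATF4 itself rose by 0.15 ± 0.03 (adjusted p = 0.0028). DDIT3, the gene of CHOP, overlapped between the groups at a log2 value of 0.06 ± 0.09 (adjusted p = 0.79). DDIT3 lies within MARS1 on the opposite strand.

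Related lists also held genes that rose. Of 20 cytosolic aminoacyl-tRNA synthetases 8 rose, led by GARS1 (glycine) and MARS1 (methionine) at 0.23 and 0.21 on the log2 scale. Of 14 amino acid transporters 6 rose, among them SLC1A4 (neutral amino acids) by 0.28 and SLC6A9 (glycine) by 0.43. Of 22 endoplasmic reticulum chaperones and stress genes 6 rose, by no more than 0.23, with HSPA5 (BiP) at 0.14 ± 0.03 (edgeR adjusted p = 0.00276). None of 18 p53 targets, 35 cytosolic ribosomal proteins, 13 mitochondrial genes or 31 nuclear respiratory chain genes was called by edgeR or DESeq2. At an unadjusted p under 0.05 there were 7, 0, 1 and 1 genes in these lists.

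**Figure D4:**
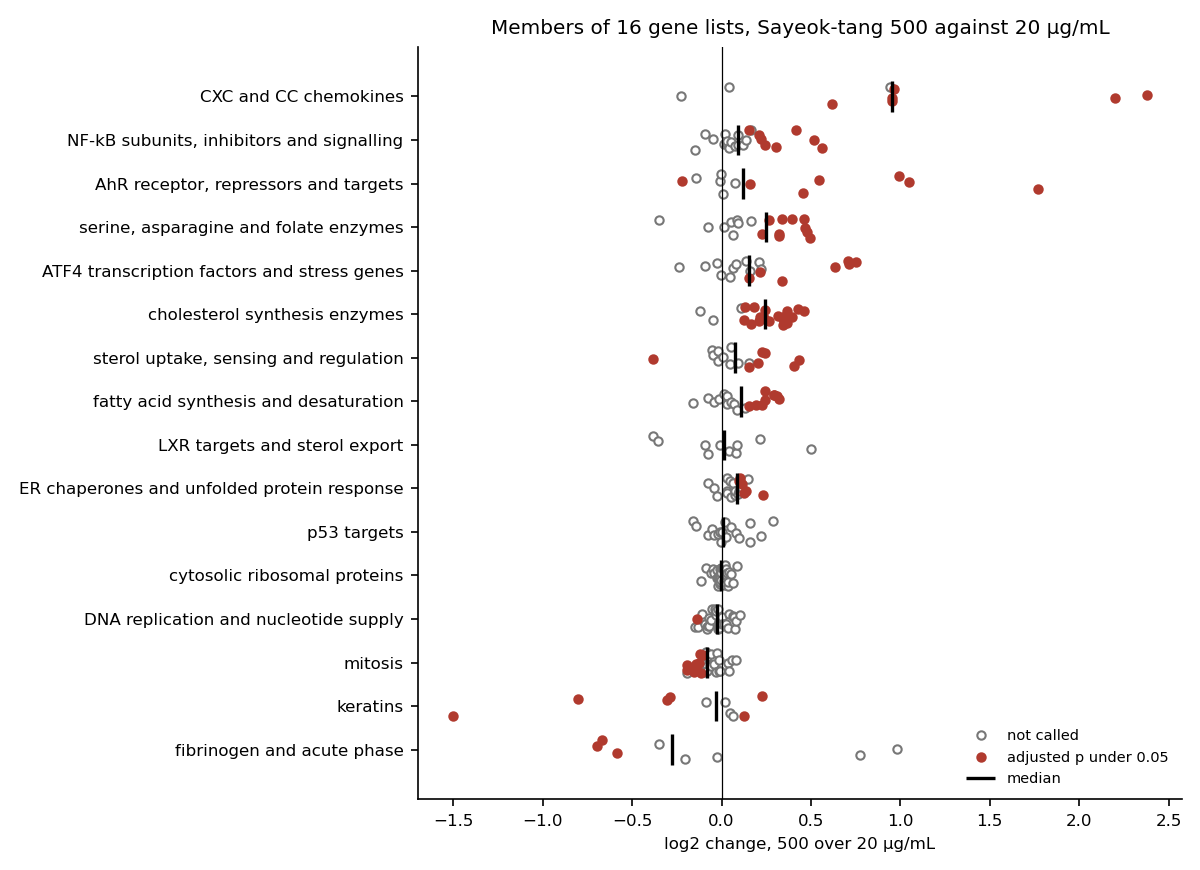
Log2 change at 500 over 20 µg/mL (x axis) of each tested member of 16 lists (rows); filled points passed an adjusted p of 0.05, open points did not, and bars are medians. The chemokine median lies at 0.95 and the cholesterol enzyme median at 0.24, while ribosomal proteins sit around 0.

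Early response genes went both ways. NR4A1, an orphan nuclear receptor induced within minutes of many stimuli, averaged 19.1 ± 0.614 CPM in high dose and 35.9 ± 0.369 CPM in low dose libraries (SD, n = 3 each). Its log2 change was -0.92 ± 0.05 (edgeR adjusted p = 2.50e-15). NR4A2 and NR4A3, its relatives, had log2 changes of -0.89 and -1.09. FOS fell with them, at 2.08, 2.39 and 2.33 CPM at 500 µg/mL, against 3.56, 4.59 and 3.87 CPM at 20 µg/mL. In contrast, FOSL1, JUN, IER3 and MYC of the same list rose, so that 4 of 19 tested members rose and 5 fell.

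The 3 fibrinogen genes, neighbours on chromosome 4 and best known from liver, fell together. FGB, the beta chain, had 102, 105 and 99.6 CPM in high dose libraries, against 163, 166 and 167 CPM in low dose libraries (log2 change -0.69 ± 0.03, edgeR adjusted p = 2.22e-18). FGA had 100.1, 102 and 98.4 CPM at 500 µg/mL, against 146, 151 and 154 CPM at 20 µg/mL. FGG had 56.0, 59.6 and 53.5 CPM in high dose libraries, against 83.9, 92.8 and 92.4 CPM in low dose libraries. The other 5 tested acute phase genes were under 2 CPM in the 6 libraries and did not pass the test.

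Of 10 tested keratins 4 fell and 2 rose. KRT18 had 1899, 2011 and 1915 CPM in high dose libraries, against 2456, 2387 and 2344 CPM in low dose libraries (log2 change -0.30 ± 0.03, edgeR adjusted p = 6.32e-08). KRT8, its partner in simple epithelium, had 2612, 2675 and 2610 CPM at 500 µg/mL, against 3329, 3230 and 3091 CPM at 20 µg/mL. The 2 genes overlap at their ends on opposite strands. KRT4, a keratin of stratified mucosa, averaged 15.6 ± 2.5 CPM in high dose and 27.2 ± 1.35 CPM in low dose libraries (SD, n = 3 each). Of 13 tested epithelial junction and alveolar genes 3 rose and 3 fell, and of 21 tested collagen and matrix genes 4 rose and 1 fell. CLDN1 (a tight junction claudin) rose by 0.42 ± 0.03, whereas CLDN2 changed by -0.37 ± 0.06. COL1A1, the matrix gene that fell, changed by -0.40 ± 0.05 (edgeR adjusted p = 2.65e-12, 1.09e-05 and 7.82e-07 for these 3). In the list around GREM1, 6 of 19 tested genes of BMP and TGF-beta signalling fell, among them the receptor gene TGFBR2 (-0.20 ± 0.04) and the feedback gene PMEPA1 (-0.22 ± 0.03), and 2 rose, GREM1 among them.

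Mitosis genes were slightly lower. Of 30 tested, 9 fell and none rose, with a median log2 change of -0.08. AURKA, a spindle kinase, had 149, 151 and 152 CPM at 500 µg/mL, against 162, 172 and 167 CPM at 20 µg/mL. NUSAP1, a spindle protein, changed by -0.19 ± 0.04 (edgeR adjusted p = 0.000287). The count depended on the fit: it was 15 with the 9 Sayeok-tang libraries or the 6 libraries alone, 5 without the filter on low counts, and 4 to 6 when 1 library was left out, at 4 without high dose replicate 1, high dose replicate 2 or low dose replicate 1. Of 32 genes of DNA replication 1 fell, where 3.77% of all genes tested fell. CCNB1, cyclin B1, had a log2 value of -0.08 ± 0.03 (adjusted p = 0.124), but passed with the 9 or the 6 libraries alone.

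The medium dose shows where along the range the change took place. The doses are 5-fold apart, so a change linear in log dose has a curvature (high minus 2 times medium plus low) of 0. The curvature and the comparison of high with low dose share libraries. Of the 16721 genes, 23 (0.138%) had a curvature at adjusted p under 0.05, 17 above 0 and 6 below. Of those above 0, 8 were cholesterol enzymes, among them SQLE, DHCR7, FDPS, CYP51A1, MSMO1, FDFT1 and LSS, and 3 were the desaturases SCD, FADS1 and FADS2. These genes were nearly level between 20 and 100 µg/mL. SCD averaged 938 CPM in vehicle, 1051 CPM at 20, 1016 CPM at 100 and 1312 CPM at 500 µg/mL, with a curvature of 0.42 ± 0.06 (edgeR adjusted p = 4.22e-05). FDFT1 averaged 115 CPM in vehicle, 112 CPM at 20, 111 CPM at 100 and 145 CPM at 500 µg/mL. MSMO1 averaged 41.2, 39.7, 41.1 and 54.6 CPM in the same order. No cholesterol enzyme was called between 100 and 20 µg/mL, where 40 genes (0.239%) were called in all.

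CXCL5 had the strongest evidence for curvature (0.60 ± 0.06, edgeR adjusted p = 1.42e-07), with 84.9 CPM in vehicle, 89.2 CPM at 20, 101 CPM at 100 and 173 CPM at 500 µg/mL. CYP1B1, TIPARP and C3 also curved upward, although CYP1B1 already rose over the first step. FGB curved downward (-0.31 ± 0.05, adjusted p = 0.00292). By contrast, GREM1 averaged 5.03 CPM in vehicle, 5.67 CPM at 20, 9.14 CPM at 100 and 14.7 CPM at 500 µg/mL, with a curvature of -0.004 ± 0.138 and 50.2% of the log2 distance covered at 100 µg/mL. H19 averaged 84.9, 85.4, 61.2 and 40.4 CPM in the same order, and NR4A1 38.1, 35.9, 27.2 and 19.1 CPM. CYP1A1 had covered 57.4% of its log2 distance at 100 µg/mL. The low dose was not at the vehicle level in all of these genes. KRT18 averaged 2396 CPM at 20 µg/mL and 2744 CPM in vehicle, CYP1B1 67.9 CPM at 20 µg/mL and 56.0 CPM in vehicle, FADS1 346 CPM at 20 µg/mL and 312 CPM in vehicle, and FDPS 87.2 CPM at 20 µg/mL and 97.4 CPM in vehicle. SCD was also above vehicle at 20 µg/mL. Differences from vehicle were not tested here.

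**Figure D5:**
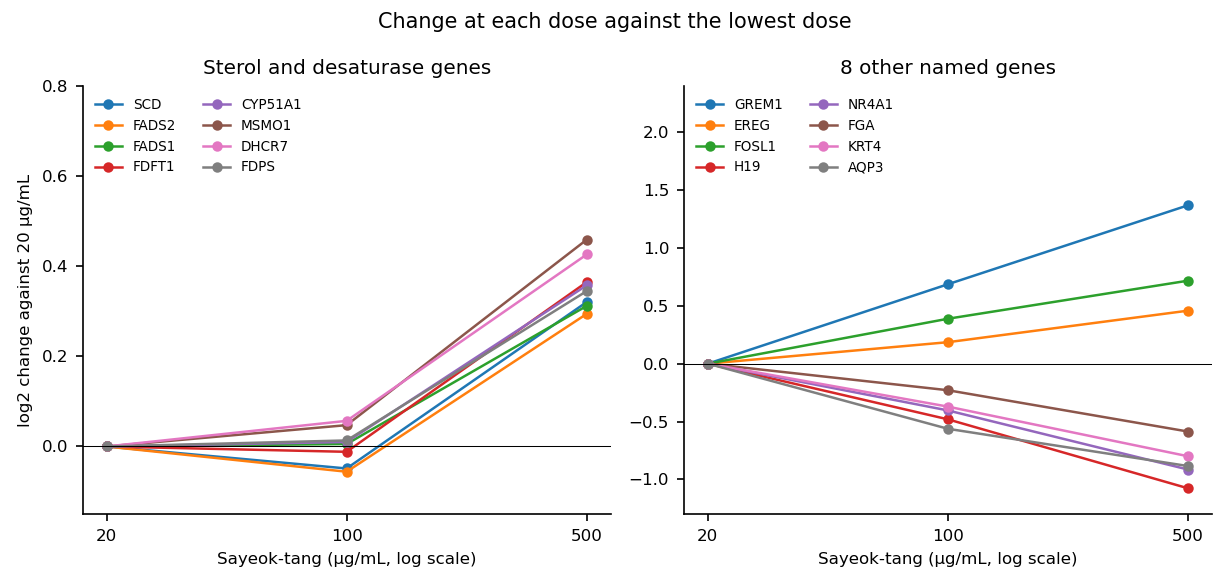
Log2 change against 20 µg/mL (y axis) at 20, 100 and 500 µg/mL Sayeok-tang (x axis, log scale) for 8 sterol and desaturase genes (left) and 8 other named genes (right). The left-hand genes stay within 0.06 of 0 at 100 µg/mL and lie between 0.29 and 0.46 at 500 µg/mL, while GREM1 and H19 move at both steps. All 8 genes on the left passed the curvature test (edgeR adjusted p under 0.05) and none on the right did. The contrast between the panels therefore follows from the choice of genes, and genes of other kinds that curved are not shown.

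The same step in dose of Bojungikgi-tang shows where Sayeok-tang differed. The change under Sayeok-tang minus that under Bojungikgi-tang passed an adjusted p of 0.05 in 46 genes (0.275%), 27 above 0 and 19 below, and all 46 were also called between the Sayeok-tang doses. The dose changes of the 2 formulas share no library, but the difference and the Sayeok-tang dose change do. Bojungikgi-tang rests on 2 libraries a dose and had 119 genes (0.712%) called between its doses. Among them were 5 of 9 tested chemokines and 6 of 18 tested serine, asparagine and folate enzymes, all higher. With them were 3 of 8 tested acute phase genes, all lower, and no cholesterol enzyme. CXCL5 differed most clearly, with a log2 change of 0.95 under Sayeok-tang and 0.30 under Bojungikgi-tang (difference 0.65 ± 0.06, edgeR adjusted p = 9.17e-10). In the cholesterol list 5 enzymes differed, MSMO1 by 0.48 ± 0.07, DHCR7 by 0.33 ± 0.06, FDFT1 by 0.33 ± 0.05, CYP51A1 by 0.30 ± 0.05 and FDPS by 0.28 ± 0.05. The median change over the 21 enzymes was 0.24 under Sayeok-tang and 0.04 under Bojungikgi-tang. FADS1, SCD, FADS2 and SREBF2 differed too, by 0.35, 0.30, 0.28 and 0.26. Below 0 were FGA and FGB, each by -0.36, and KRT4, KRT18 and KRT8 by -0.61, -0.26 and -0.23.

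For some of the Sayeok-tang changes the difference between the formulas did not pass the adjusted test, although several of these differences were more than 3 times their SE. CXCL1 changed by 2.20 under Sayeok-tang and by 1.63 under Bojungikgi-tang on the log2 scale (difference 0.57 ± 0.32, edgeR adjusted p = 0.739). H19 changed by -1.08 and -0.66 (difference -0.42 ± 0.12, adjusted p = 0.317) and NR4A1 by -0.92 and -0.65 (difference -0.27 ± 0.08, adjusted p = 0.266). CYP1A1 changed by 1.77 and 0.45, but at its low level the difference of 1.32 ± 0.32 did not pass (adjusted p = 0.069). ASNS changed by 0.47 and 0.26 (difference 0.20 ± 0.06, adjusted p = 0.174). These p-values do not show that the formulas act alike.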

How the data were processed

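Paired-end RNA-seq of A549 cells was made with a strand-keeping kit on an MGI instrument, per the labels' protocols. The authors trimmed reads with Trim Galore 0.6.5 and used STAR 2.7.3a and RSEM 1.3.3 on GRCh38, per the submitters' processing notes. For annotation release and strand setting, the sources used here give nothing. As deposited, the table has expected counts, unnormalized, for 60675 Ensembl gene IDs. Its other 209 columns of values were not used. Positions came from GENCODE 29 (57055 IDs matched). Names came from a separate list of gene symbols, with the GENCODE 29 name where that list gave none.

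Expected counts were rounded to whole numbers. edgeR 4.0.16 (filterByExpr with a minimum count of 10, TMM scaling, robust quasi-likelihood fit, 1 mean per group) was run on 18 libraries of 7 groups: Sayeok-tang and Bojungikgi-tang at 3 doses each and vehicle. Genes were called at a Benjamini-Hochberg adjusted p under 0.05 over all 16721 tested. CPM are counts per 1e6 library counts with TMM scaling and are not corrected for gene length, so levels of different genes are not compared; SE is the log2 change over the root of F. On simulated data for this comparison (16522 genes), 87.9% of 2-fold and 68.0% of 1.5-fold changes were recovered, and 7.83% of calls were false. There 99 genes were changed 2-fold and 97 genes 1.5-fold, and the others were left unchanged. The simulation thus gives no recovery rate for smaller changes, which most called genes had. Its share of false calls holds for that number of changed genes.

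Named genes were the 10 largest changes each way among called genes of at least 5 CPM without overlap, up to 4 members by p of each list with 3 or more calls, and a followed set. Others are named as list members. The members, 40 gene lists and followed genes were chosen with earlier results of these data known. Alternatives were DESeq2 1.42.0, other scalings, no filter, other library sets, a replicate block and leaving out libraries. Replicates of a group differed by more than sampling noise, with a chi-square per gene of 3.34 to 7.09. Some members of the lists are not reported here by name.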

Additional observations from a re-analysis of the deposited data

Results flagged for a closer look

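In 24 named genes the change at 500 over 20 µg/mL differed between Sayeok-tang and Bojungikgi-tang (interaction contrast, edgeR adjusted p under 0.05; 3 libraries a dose for Sayeok-tang and 2 for Bojungikgi-tang). The values are log2 differences, Sayeok-tang minus Bojungikgi-tang. Inflammatory, growth factor and AhR genes stood above 0: GREM1 by 0.78, CXCL5 by 0.65, TIPARP by 0.52, CYP1B1 by 0.44, FOSL1 by 0.39, C3 by 0.34 and EREG by 0.29. So did sterol and fatty acid genes, MSMO1 by 0.48, FADS1 by 0.35, DHCR7 by 0.33, FDFT1 by 0.33, CYP51A1 by 0.30, SCD by 0.30, FADS2 by 0.28 and SREBF2 by 0.26. Stress and junction genes followed, TRIB3 by 0.37, CLDN1 by 0.34 and HMOX1 by 0.28. Below 0 were KRT4 at -0.61, COL1A1 at -0.37, FGA and FGB at -0.36 each, KRT18 at -0.26 and KRT8 at -0.23. Between the Bojungikgi-tang doses GREM1, CXCL5, TIPARP, CYP1B1, FOSL1, C3, EREG, TRIB3 and HMOX1 also rose, and FGA and FGB also fell (edgeR adjusted p under 0.05). There GREM1 changed by 0.59, CYP1B1 by 0.61 and FGB by -0.34 on the log2 scale. The sterol and fatty acid genes, CLDN1, COL1A1 and the 3 keratins were not called between those doses. Groups of 3 libraries were too small for a search for single outlying libraries.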

How the results depend on the processing

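Counts of genes higher and lower at 500 µg/mL stayed within 1.5 times of 638 and 630 under the alternatives run, except for 422 higher genes by DESeq2 and 419 lower genes without high dose replicate 3. For DESeq2, 97.6% of its 868 calls were among the 1268. Of the 1268, 162 changed at least 1.5-fold. Leaving out 1 library of the 6 gave 437 to 513 higher and 419 to 487 lower genes, 876 to 960 in all. Without the filter on low counts, 41 genes curved (27 upward, 14 downward) and 88 differed between formulas (54 above 0, 34 below). Leaving out 1 library, chosen after seeing the data for these contrasts, gave 19 to 23 curved genes (13 to 17 upward, 5 to 7 downward) and 32 to 39 that differed between formulas (19 to 25 above 0, 11 to 17 below; 12 without high dose replicate 2 and 11 without high dose replicate 3).

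Mitosis genes that fell numbered 5 without the filter and 15 with 9 or with 6 libraries alone. Leaving out 1 library gave 4 to 6 of them, 13 to 16 cholesterol enzymes, 7 to 9 fatty acid genes, 5 to 6 chemokines, 8 to 9 NF-kB signalling genes, 4 to 6 AhR genes, 10 to 10 serine and folate enzymes, 7 to 8 ATF4 genes, 7 to 9 tRNA synthetases and 3 to 3 acute phase genes. The cause of these shifts was not tested, beyond the smaller number of libraries where 1 was left out.

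Same-numbered replicates did not deviate together between high and low dose (correlations 0.005, 0.046 and 0.049 over genes). With the replicate number as a block, 647 genes were higher and 651 lower, 24 curved and 54 differed between formulas. Of 116 called named genes, none lost its call under the block, relative log expression scaling or the 9 Sayeok-tang libraries alone, 1 with upper quartile scaling or the 6 libraries alone, 3 without the filter, 4 by DESeq2, 4 with all 60 libraries and 7 to 9 when 1 library was left out. No named gene changed sign under any alternative run. In the bottom quartile of CPM 1.91% of genes were called, against 12.9% in the top quartile; the part of depth in this was not tested. CXCL1, CXCL8 and CYP1A1 rest on a few CPM.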

Other observations

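Glucocorticoid-responsive genes fell more often than they rose between the doses. Of 10 tested, 4 fell and 1 rose. SGK1, a salt-regulating kinase, had 38.0, 37.0 and 37.4 CPM in high dose libraries, against 46.2, 47.8 and 49.3 CPM in low dose libraries (log2 change -0.35 ± 0.04, edgeR adjusted p = 2.01e-07). KLF9, a Krüppel-like factor, had 3.71, 3.22 and 3.37 CPM at 500 µg/mL, against 6.43, 6.01 and 5.37 CPM at 20 µg/mL. TSC22D3 (GILZ), a standard glucocorticoid marker, went up instead, with a log2 change of 0.44 ± 0.09 (adjusted p = 0.000824). Over all genes tested, 3.82% rose and 3.77% fell. Of 16 tested clock genes 1 rose and 2 fell, with a median log2 change of -0.012. PER2, 1 of those that fell, changed by -0.35 ± 0.05 (edgeR adjusted p = 3.56e-06).

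Most NRF2 targets did not pass the test: of 22 tested, 3 rose, 4 fell and 15 were not called, with a median log2 change of -0.04. HMOX1, heme oxygenase 1, had 208, 202 and 205 CPM in high dose libraries, against 156, 140 and 145 CPM in low dose libraries (log2 change 0.48 ± 0.04, edgeR adjusted p = 2.65e-12). GCLM, of glutathione synthesis, rose by 0.14 ± 0.03. AKR1C1, AKR1C2 and AKR1C3, close copies whose reads are hard to separate, changed by -0.23, -0.12 and -0.14, and TKT by -0.15 (adjusted p = 5.18e-06, 0.00719, 0.0321 and 0.000458). Among imprinted genes besides H19, PEG10 had 332, 326 and 320 CPM at 500 µg/mL, against 407, 399 and 401 CPM at 20 µg/mL, while MEST and GRB10 rose by 0.19 and 0.14. CP, ceruloplasmin, had 4.71, 5.17 and 4.03 CPM in high dose libraries, against 7.19, 6.77 and 7.13 CPM in low dose libraries. CP lies over HPS3, a more abundant gene on the opposite strand (54.9 CPM over the 6 libraries).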
